A study of Drosophila melanogaster with 4 samples.

Results

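The proteasome subunit genes of Drosophila melanogaster were followed in embryos without the 8-miR cluster, a group of neighbouring microRNA genes, and in w1118 embryos. They were chosen by gene symbol: every array probe whose annotation ID maps to a symbol that begins with Prosalpha, Prosbeta, Rpn or Rpt and a digit. This gave 48 genes and 69 probes among 13052 named genes: 14 genes of the core particle, 18 of the regulatory particle and 16 paralogs, which are related copies whose symbols end in T or R with or without a digit. No measured value entered the choice of single genes, but the gene group was picked for study with results of these arrays known, so the counts below are descriptions.

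Null embryos and w1118 embryos were collected 6 to 8 h after egg laying, after 2 h of laying and 6 h of aging at 25 °C. Both genotypes have the w1118 background, a laboratory strain with white eyes. The labels conflict on the first genotype: titles and source names give the 8-miR cluster null used here, the genotype field gives a miR-8 cluster null, and a protocol field mentions homozygous ectopic mir-3 expression. Total RNA of whole embryos was hybridised in pairs to 4 Agilent 2-colour arrays, which hold 3 independently isolated extracts per genotype. Replicates 1, 2 and 3 carried null RNA in Cy3, and a further array repeated replicate 1 with the dyes exchanged (the dye swap). No named probe reads the deleted microRNAs, so the labels' dye assignments alone set the sign of the ratios.

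The proteasome degrades proteins tagged with ubiquitin. Its core particle is a barrel of alpha and beta rings: the alpha rings form the gate, and the beta rings hold the cutting sites. The regulatory particle caps the barrel. Its base contains a ring of Rpt ATPases that unfold substrates and the Rpn subunits that receive ubiquitin. Its lid contains Rpn11, the subunit that removes ubiquitin, with its partner Rpn8 and structural Rpn subunits. Fly embryos start from proteasomes and proteasome mRNA supplied by the mother. Many of the fly paralogs are known for expression in the testis, where they replace the general subunits during sperm formation.

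Across the 4 arrays, 58.01% to 65.79% of spots in the null channel and 56.71% to 65.47% in the w1118 channel were well above background. No spot was saturated. Pearson's r between arrays over kept probes was 0.941 to 0.958 without the dye swap and 0.824 to 0.883 with it. The 15 embryo marker genes were all above background on every array in both genotypes. The number of arrays limits the precision, and in RNA of whole embryos fewer cells that express a gene and less RNA per cell cannot be told apart.

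All ratios are log2 of null over w1118, so a positive value means higher in null embryos. Each gene is represented by its brightest probe above background, and the mean and SD are over 3 replicates, with both arrays of replicate 1 averaged first. Of the 48 genes, 39 could be tested: all 14 core particle genes, all 18 regulatory particle genes and 7 of the 16 paralogs. The test was limma's moderated test over 9732 genes at an adjusted p under 0.05, and it called many genes: 54.7% in either direction, 28.1% higher and 26.6% lower in the null. Of the 39 proteasome genes, 19 were higher (48.7%), 3 were lower (7.69%) and 17 did not pass. Without replicate 3, 11 were higher, beside 18.1% of all genes in that fit. Rpt4R, among the 3 lower genes, entered the test through its w1118 signal only. Their median ratio was 0.14, beside 0.01 over all genes tested.

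The differences were small. Prosbeta2 alone differed by at least 2-fold, and 32 to 35 of the 39 genes had the same sign on any 2 of the unswapped arrays. With the dye swap, 25 or 26 genes had the same sign. Of the 22 genes called, Prosbeta4, Rpn2 and Rpn9 turned sign on the dye swap, as 646 of the 5321 called genes did overall.

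**Figure D1:**
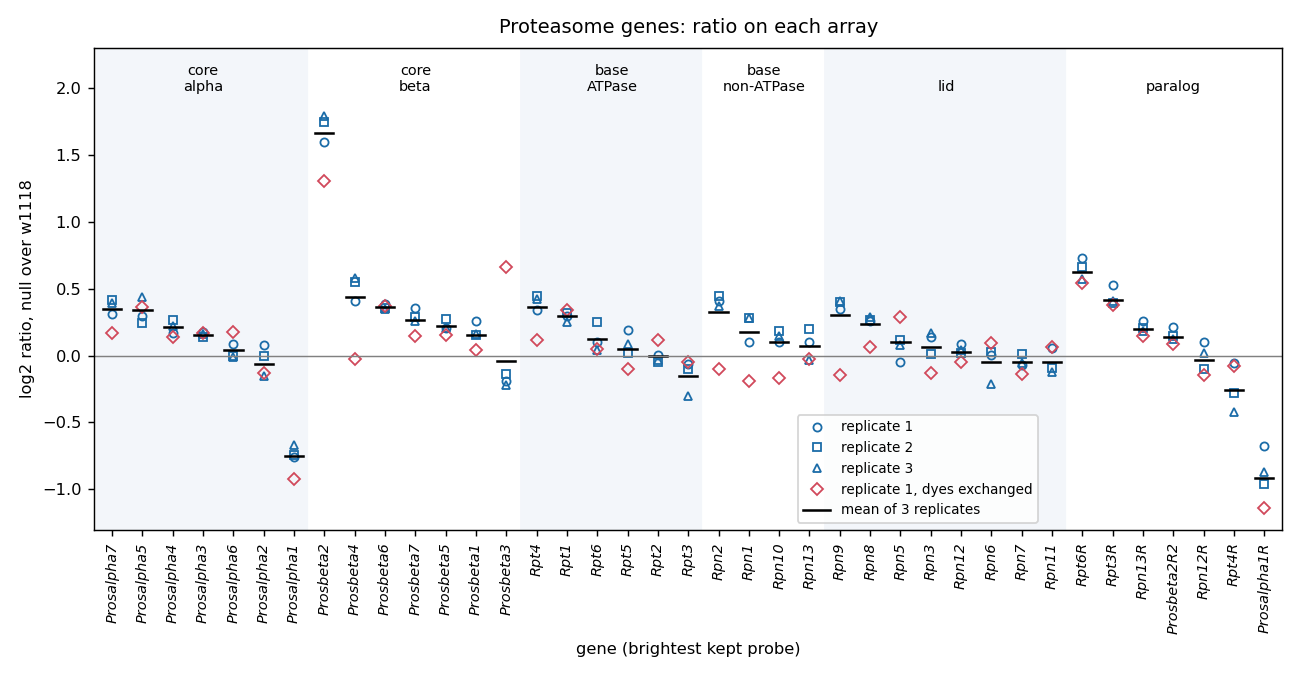
Log2 ratio of null over w1118 (vertical axis) for the 39 proteasome genes tested (horizontal axis), grouped by role; blue symbols are the unswapped arrays of replicates 1 to 3, red diamonds the dye swap of replicate 1, and bars the mean of 3 replicates. Prosbeta2 sits at 1.304 to 1.786, Prosalpha1 and Prosalpha1R are negative on every array, and the dye swap of Prosbeta3 (0.66) is on the other side of 0 from the other arrays.

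In the core particle, 10 of 14 genes were higher in the null (71.4%, beside 28.1% of all genes), 1 was lower and 3 did not pass. Without replicate 2 the count of higher core genes was 6, beside 21.9% of all genes higher in that fit. The count was also 6 without replicate 3 (18.1% of all genes) and with arrays centred on their median (22.3%). The median core ratio was 0.22. It was 0.23, 0.25 and 0.21 on the arrays of replicates 1, 2 and 3, and 0.16 on the dye swap. The core median was thus above 0 on each array.

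The beta ring held 6 higher genes of 7 (85.7%, beside 28.1% of all genes), with a median ratio of 0.27. Prosbeta2 (CG3329) encodes the subunit with trypsin-like activity. Its log2 signal, normalized within and between arrays, was 14.36, 14.27, 14.30 and 14.20 in null embryos on the arrays of replicates 1, 2, 3 and the dye swap, against 12.76, 12.53, 12.52 and 12.90 in w1118 embryos. The genotypes did not overlap, and null was the brighter channel in both dye orientations. The ratio was 1.66 ± 0.18 (SD, n = 3), which is 3.16-fold higher in the null (95% interval of the log2 ratio 1.48 to 1.84, adjusted p = 9.02e-06). A second probe of the same transcript gave a much smaller ratio, 0.34 ± 0.02, with 0.47, 0.32 and 0.35 on the arrays of replicates 1 to 3 and 0.27 on the dye swap (adjusted p = 0.00114 over all kept probes). Both Prosbeta2 probes were therefore higher in the null, but only the brighter one by more than 2-fold. With the mean of both probes the Prosbeta2 ratio was 1.00.

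The other catalytic subunits changed less. Prosbeta5, the subunit with chymotrypsin-like activity, had a ratio of 0.22 ± 0.05 (adjusted p = 0.00764), and Prosbeta1, the caspase-like one, had 0.155 ± 0.005 (adjusted p = 0.0221). Both were positive on all 4 arrays. They missed the threshold without replicate 2, at adjusted p = 0.0548 for Prosbeta5 and 0.125 for Prosbeta1, and without replicate 3, at 0.0526 for Prosbeta5 and 0.147 for Prosbeta1.

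The remaining beta genes encode subunits without a cutting site. Prosbeta4 had ratios of 0.41, 0.55 and 0.58 unswapped and -0.03 with dyes exchanged, with a mean of 0.44 ± 0.22 (adjusted p = 0.00475). With replicate 1 taken from its dye swap alone, Prosbeta4 missed the threshold (0.37, adjusted p = 0.0853). Prosbeta6 was the steadiest of the beta genes over the 4 arrays, at 0.39, 0.35 and 0.35 unswapped and 0.37 on the dye swap. Its log2 signal was 13.74, 13.59, 13.65 and 13.75 in null embryos, against 13.35, 13.23, 13.30 and 13.39 in w1118 embryos, in the order of replicates 1, 2, 3 and the dye swap. The Prosbeta6 ratio was 0.36 ± 0.02 (adjusted p = 7.18e-04). Prosbeta7 was higher at 0.27 ± 0.02 (adjusted p = 0.00264). Its other probe varied more, with 0.38, 0.86 and 0.53 unswapped and 0.09 on the dye swap (0.54 ± 0.31).

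Prosbeta3 was the one beta gene that did not pass, and its dye swap differed in sign from its other arrays. It had -0.19, -0.14 and -0.22 unswapped and 0.66 on the dye swap, with a mean of -0.04 ± 0.24 (adjusted p = 0.702). Without replicate 1, whose mean includes the dye swap, the Prosbeta3 ratio was -0.18 (adjusted p = 0.0264). In a fit of all 4 arrays with a dye term it was 0.24. The dye swap is the only array with exchanged dyes, so that fit cannot measure its scatter. The direction for Prosbeta3 is therefore not settled by these arrays.

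Among the 7 alpha ring genes, 4 were higher (57.1%, beside 28.1% of all genes), 1 was lower and 2 did not pass. The median of the ring was 0.16. Prosalpha7 (0.35 ± 0.09, adjusted p = 0.0019) and Prosalpha5 (0.34 ± 0.10, adjusted p = 0.00229) had the largest increases of the ring. Prosalpha4 (0.21 ± 0.06) and Prosalpha3 (0.16 ± 0.02) rose less, with adjusted p = 0.00874 for Prosalpha4 and 0.0217 for Prosalpha3. All 4 were positive on each array, dye swap included. Without replicate 2, Prosalpha4 (adjusted p = 0.0566) and Prosalpha3 (0.0999) missed the threshold, as they did without replicate 3 (Prosalpha4 0.0684, Prosalpha3 0.139). Prosalpha6 (0.04 ± 0.08, adjusted p = 0.535) did not pass. Prosalpha2, with 0.08, -0.01 and -0.15 unswapped and -0.13 with dyes exchanged, did not pass either (-0.06 ± 0.08, adjusted p = 0.332).

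Prosalpha1 (CG18495) was the alpha ring gene called lower. Its log2 signal was 13.24, 13.39, 13.34 and 13.20 in null embryos on the arrays of replicates 1, 2, 3 and the dye swap, against 14.00, 14.14, 14.01 and 14.12 in w1118 embryos. The genotypes did not overlap. The ratio was -0.75 ± 0.09 (95% interval -0.87 to -0.63), so the signal was 1.68-fold higher in w1118 (adjusted p = 6.01e-05). The second Prosalpha1 probe was lower in the null too, at -0.51 ± 0.06 (adjusted p = 2.49e-04 over all kept probes).

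Its paralog Prosalpha1R (CG30382) is a near neighbour, with 1 gene between them on arm 2R, and was also lower. The log2 signal of Prosalpha1R was 12.02, 12.28, 12.24 and 11.91 in null embryos, against 12.69, 13.24, 13.11 and 13.05 in w1118 embryos, in the same order of arrays. Every null value of Prosalpha1R was below every w1118 value. The ratio was -0.91 ± 0.04, or 1.88-fold higher in w1118 (adjusted p = 1.49e-05). The copies are similar, and how far the probes of one also bind RNA of the other was not tested, so these decreases may not be separate measurements.

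**Figure D2:**
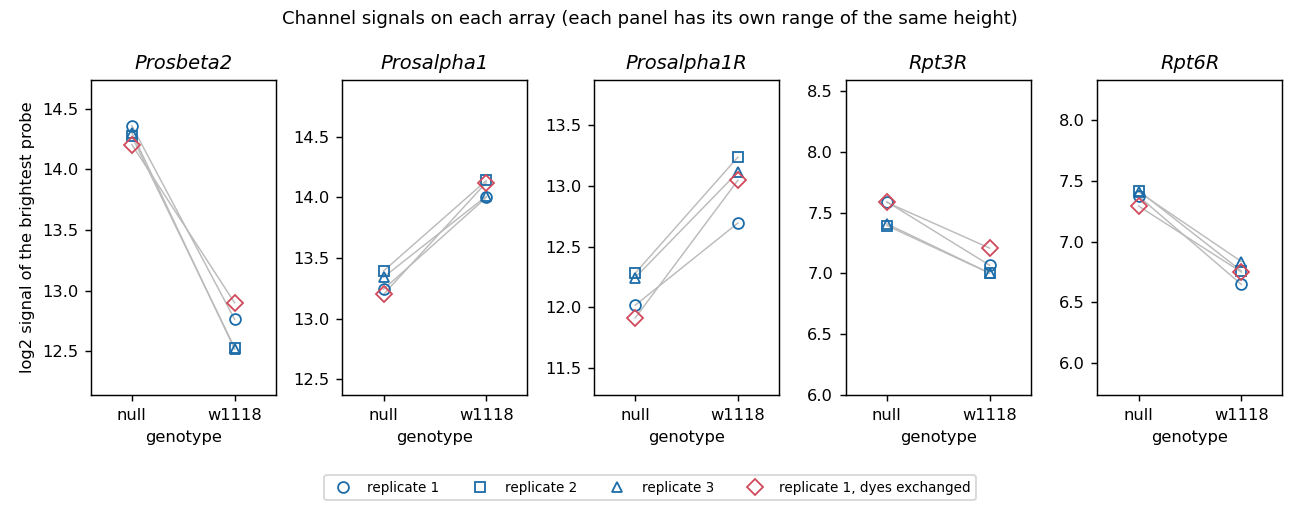
Log2 channel signal (vertical axis) of the brightest probe in null embryos (left) and w1118 embryos (right) for 5 proteasome genes; lines join the 2 channels of an array, and red diamonds mark the dye swap of replicate 1. Null and w1118 points do not overlap in any panel: null lies above w1118 for Prosbeta2, Rpt3R and Rpt6R, and below it for Prosalpha1 and Prosalpha1R.

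In the regulatory particle, 5 of 18 genes were higher (27.8%, beside 28.1% of all genes), none was lower (0 of 18) and 13 did not pass. Without replicate 3, 3 were higher (beside 18.1% of all genes). With replicate 1 from its dye swap alone, 2 were (beside 17.9%). The median ratio was 0.08. By array it was 0.10, 0.15 and 0.08 for replicates 1, 2 and 3, and -0.04 on the dye swap. The regulatory median was therefore negative on the dye swap alone, and it was -0.015 when arrays were only centred on their median.

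Of the 6 ATPases in the base, Rpt4 and Rpt1 were higher (33.3%, near the 28.1% of all genes). Rpt4 had a log2 signal of 14.36, 14.52, 14.53 and 14.21 in null embryos on the arrays of replicates 1, 2, 3 and the dye swap, against 14.02, 14.07, 14.11 and 14.10 in w1118 embryos. The ratios were 0.34, 0.44, 0.42 and 0.12, so the Rpt4 difference was smallest on the dye swap. Their mean was 0.36 ± 0.12 (adjusted p = 0.00231). Rpt1 had 0.30, 0.32 and 0.25 unswapped and 0.34 on the dye swap, with a mean of 0.29 ± 0.04 (adjusted p = 0.00198). Rpt1 was thus higher in both dye orientations. A second probe did not repeat either increase: it gave 0.04 for Rpt4 and -0.04 for Rpt1.

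The other ATPase genes did not pass: Rpt6 had a mean of 0.12, Rpt5 0.05 and Rpt2 -0.01. Rpt3 was the lowest of the regulatory particle, with -0.06, -0.10 and -0.30 unswapped and -0.05 with dyes exchanged (-0.15 ± 0.13, adjusted p = 0.0729). Its second probe averaged -0.28 ± 0.25 and passed (adjusted p = 0.041 over all kept probes), although it was 0.19 on the dye swap.

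Of the 4 non-ATPase genes of the base, Rpn2 was higher (25%, near the 28.1% of all genes). It encodes the scaffold that holds the ubiquitin receptor Rpn13. Rpn2 had 0.41, 0.45 and 0.37 unswapped and -0.10 on the dye swap, with a mean of 0.32 ± 0.15 (adjusted p = 0.00635). Its other probe varied more, with 0.25, 1.12 and 0.50 unswapped and 0.03 on the dye swap (0.59 ± 0.50). With replicate 1 from its dye swap alone, Rpn2 missed the threshold (0.24, adjusted p = 0.171), and with a dye term its ratio was 0.155. Rpn1, the docking subunit for shuttle proteins, had 0.17 ± 0.19 (adjusted p = 0.0883), and the ubiquitin receptor Rpn10 had 0.10 ± 0.12 (adjusted p = 0.184). Both had negative values on the dye swap. Both passed without replicate 1 (Rpn1 0.28, adjusted p = 0.00599, and Rpn10 0.16, adjusted p = 0.0258), a fit that holds no array with exchanged dyes. With replicate 1 from its dye swap alone neither passed (Rpn1 0.125, adjusted p = 0.415, and Rpn10 0.05, adjusted p = 0.656). With a dye term the ratios were 0.017 for Rpn1 and -0.012 for Rpn10.

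The probes of Rpn13 disagreed. The brightest, named for transcript RD, gave 0.07 ± 0.12 (adjusted p = 0.347). Another probe of RD was higher in the null, at 0.38, 0.49 and 0.51 unswapped and 0.33 with dyes exchanged (0.45 ± 0.08, adjusted p = 5.99e-04 over all kept probes). A dim probe named for RA was lower, at -0.32, -0.33, -0.15 and -0.59 in the same order of arrays (-0.31 ± 0.15, adjusted p = 0.00815). Rpn13 was the one proteasome gene with kept probes called in opposite directions.

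In the lid, 2 of 8 genes were higher (25%, near the 28.1% of all genes), and the median was 0.04. Rpn9 had 0.34, 0.40 and 0.40 unswapped and -0.15 on the dye swap (0.30 ± 0.18, adjusted p = 0.0122), and a second probe averaged 0.30. Rpn8, the partner of the deubiquitinating subunit Rpn11, had 0.26, 0.27 and 0.28 unswapped and 0.06 on the dye swap (0.24 ± 0.07, adjusted p = 0.00639). Both stood well below their other arrays on the dye swap. With replicate 1 from its dye swap alone, neither passed (adjusted p = 0.224 for Rpn9 and 0.0695 for Rpn8), nor did they without replicate 3 (0.0714 for Rpn9 and 0.062 for Rpn8). Rpn11 itself had 0.05, -0.10 and -0.12 unswapped and 0.07 on the dye swap (-0.05 ± 0.10, adjusted p = 0.435). Rpn7, a structural subunit, had -0.07, 0.01 and -0.05 unswapped and -0.14 on the dye swap (-0.05 ± 0.06, adjusted p = 0.396). The structural subunits Rpn3, Rpn5, Rpn6 and Rpn12 lay between -0.05 and 0.10 and did not pass.

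The core median exceeded the regulatory median by 0.13. The difference was 0.130, 0.106 and 0.131 for replicates 1, 2 and 3, and 0.199 on the dye swap alone, so it kept its sign on each array. On slide 1, which held both arrays of replicate 1, the medians were 0.18 (core) and 0.05 (regulatory). On slide 2, which held replicates 2 and 3, they were 0.24 (core) and 0.09 (regulatory). Under 18 alternative settings the difference ran between 0.121 and 0.182. Not all of these could move it: other filters on dim probes and no variance moderation left it at 0.133. The authors' matrix and the scanner's processed signals hold the same ratios, and both gave 0.121. No test is given for it, since the genes of a particle are not replicates and both particles were chosen with results known. The overlap between the particles was wide: core ratios spanned -0.75 to 1.66, and regulatory ratios -0.15 to 0.36.

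**Figure D3:**
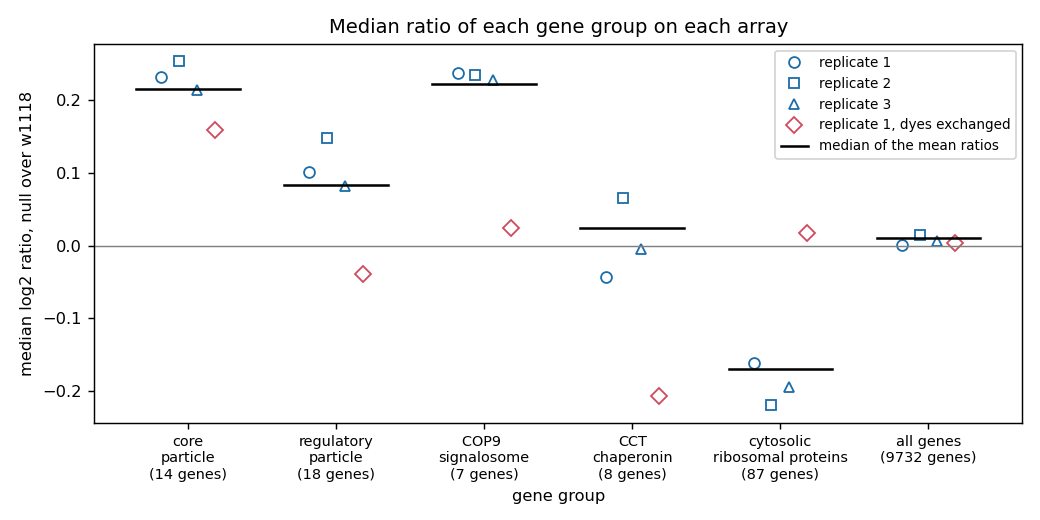
Median log2 ratio of null over w1118 (vertical axis) of 6 gene groups (horizontal axis) on each array; blue symbols are the unswapped arrays, red diamonds the dye swap of replicate 1, and bars the median of the mean ratios. The core particle is above 0 on all 4 arrays. The medians of the regulatory particle (-0.04) and of the ribosomal proteins (0.02) on the dye swap differ in sign from those on the other arrays.

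Of the 16 paralogs, 7 were measured. Rpt6R, a copy of the ATPase Rpt6, had a log2 signal of 7.38, 7.42, 7.41 and 7.29 in null embryos on the arrays of replicates 1, 2, 3 and the dye swap, against 6.65, 6.76, 6.84 and 6.75 in w1118 embryos. Its ratio was 0.62 ± 0.05 (adjusted p = 7.92e-05), and a second probe gave 0.38. Rpt3R, a copy of Rpt3, had 7.590, 7.394, 7.408 and 7.585 in null embryos, against 7.066, 7.001, 7.002 and 7.208 in w1118 embryos. Neither gene's signals overlapped between genotypes. The Rpt3R ratio was 0.42 ± 0.03 (adjusted p = 4.02e-04).

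Rpn13R (0.26, 0.21, 0.18 and 0.14; mean 0.20 ± 0.01, adjusted p = 0.00878) and Prosbeta2R2 (0.21, 0.14, 0.12 and 0.08; mean 0.14 ± 0.01, adjusted p = 0.0339) were higher by less, on all 4 arrays. Both missed the threshold without replicate 2 or replicate 3, at adjusted p = 0.0504 and 0.065 for Rpn13R and 0.193 and 0.163 for Prosbeta2R2. Rpn12R had 0.10, -0.10, 0.02 and -0.14 and did not pass (-0.03 ± 0.06, adjusted p = 0.56). Rpt4R was not well above background in null embryos on any array (0 of 4) and was above it in w1118 embryos on 2 of 4. Its measured ratios were -0.05, -0.28, -0.42 and -0.08 (mean -0.26 ± 0.18, adjusted p = 0.024). The difference was smallest on both arrays of replicate 1. The size of the decrease is not settled, since the null signal was not well above background on any array. Without replicate 3 the Rpt4R ratio was -0.17 and did not pass (adjusted p = 0.149).

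The signals of Rpt6R and Rpt3R were dim, and the size of their ratios depended on the background correction. Over the alternative settings the Rpt6R ratio ran between 0.50 and 1.31 and the Rpt3R ratio between 0.39 and 0.80, always higher in the null. Prosbeta2R2 was dimmer, with a mean log2 signal of 6.77 in null and 6.63 in w1118 embryos. Its ratio ran between 0.12 and 0.44, with the highest value from the scanner's processed signals. The other 9 paralogs were not tested: Prosalpha3T, Prosalpha4T1, Prosalpha4T2, Prosalpha6T, Prosbeta2R1, Prosbeta4R1, Prosbeta4R2, Prosbeta5R1 and Prosbeta5R2. Of these, 7 were above background on no array in either genotype, and Prosalpha3T and Prosbeta5R2 on 1 array in each.

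Of 15 testis markers, 3 were above background on at least 2 arrays in each genotype, and these were higher in the null, beside 28.1% of all genes: twe (0.62 ± 0.07, adjusted p = 1.04e-04), a Cdc25-type phosphatase of meiosis, mia (0.52 ± 0.13, adjusted p = 6.45e-04), a testis-specific TAF, and fzo (0.13 ± 0.03, adjusted p = 0.0439), a mitofusin of spermatids. Their mean log2 signal ran from 8.70 to 8.74 over arrays in null embryos and from 8.24 to 8.36 in w1118 embryos. The markers can and nht entered the test only through the null, above background on 3 null arrays each, against 0 (can) and 1 (nht) w1118 arrays. Another 8 testis markers, among them dj, ocn, Mst87F and sa, were not above background on any array in either genotype. Their part in the paralog ratios was not tested.

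Of 13 ovary and follicle markers, 9 were above background on at least 2 arrays in each genotype. Of these, 5 were lower, beside 26.6% of all genes, and 1 was higher (Cp18, 0.20), with a median ratio of -0.26. The largest decreases among them were those of Vm26Aa (-2.05), Cp15 (-1.10) and Yp2 (-1.06). Their mean log2 signal was 6.80 to 6.87 in null embryos and 7.35 to 7.49 in w1118 embryos. Vm32E was above background on 4 w1118 arrays and 0 null arrays. Of the 15 embryo markers 1 was higher (6.67%, beside 28.1% of all genes) and 5 were lower (33.3%, beside 26.6%), with a median of -0.09. Their mean log2 signal was 11.68 to 11.88 in null embryos and 11.77 to 11.98 in w1118 embryos. Further kept probes of wg (1.56 and -0.33) and of Mef2 (0.73, 0.16, 0.22 and -0.10) differed in sign. The part of developmental stage or carried-over maternal material in the proteasome ratios was not tested.

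Several genes had more than 1 probe above background, which shows how far a ratio depends on the probe. Of 19 such genes, 8 had probes within 0.1 of each other on the log2 scale, and the median gap was 0.13. In 5 genes the probes differed in sign: Rpt1, Rpn5, Rpn11, Rpn12 and Rpn13. The largest gap was that of Prosbeta2.

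**Figure D4:**
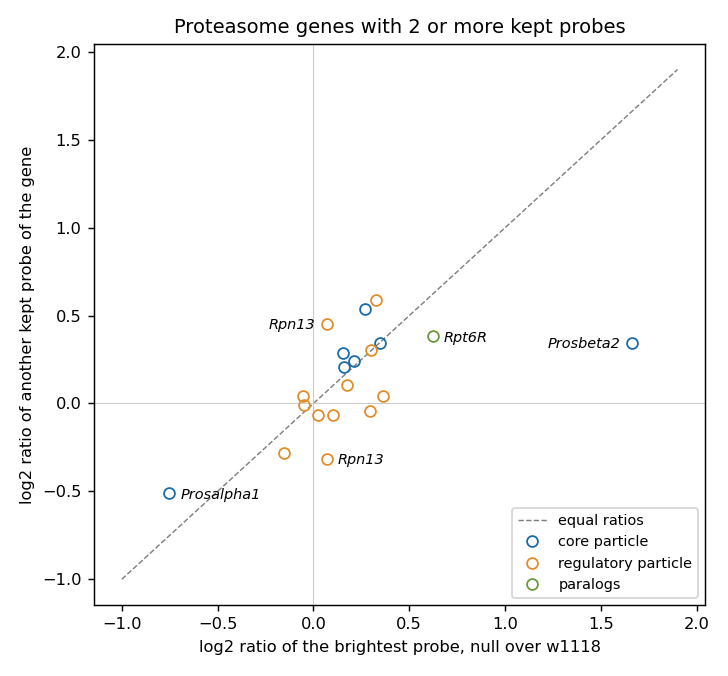
Mean log2 ratio of null over w1118 of a gene's brightest probe (horizontal axis) against that of each further kept probe (vertical axis), for the 19 proteasome genes with 2 or more kept probes; colours mark the particle and the dashed line equal ratios. Prosbeta2 lies far below the line (1.66 against 0.34), and the 2 further probes of Rpn13 fall on opposite sides of 0 (0.45 and -0.31).

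The genes lie on all major chromosome arms, and higher genes were found on each, beside 28.1% of all genes. They numbered 1 of 4 tested on 2L, 7 of 11 on 2R and 2 of 7 on 3L. On 3R they numbered 6 of 12 and on X 3 of 5. Of the 3 lower genes, Prosalpha1 and Prosalpha1R lie on 2R and Rpt4R on 3L.

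Genes that work with the proteasome were compared from lists put together by function, whose counts stand beside 28.1% higher and 26.6% lower among all genes. Of 8 partners and assembly factors, 2 were higher, with a median of 0.07: ntc (0.61 ± 0.06, adjusted p = 9.52e-05), an F-box protein that binds the proteasome regulator PI31 in sperm formation, and REG (0.20 ± 0.13, adjusted p = 0.0265), the gene of a proteasome activator. The chaperone gene Pomp, needed to build the core, had 0.03 ± 0.07 (adjusted p = 0.652). The other 2 probes of REG gave -0.02 and 0.09, so its call rests on 1 probe, which was -0.05 on the dye swap.

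Of 7 genes that control proteasome gene expression, none was higher (0 of 7) and 2 were lower, with a median of 0.04. The main activator cnc, the fly relative of mammalian Nrf1 and Nrf2, had -0.03, 0.02 and -0.01 unswapped and 0.21 with dyes exchanged (0.04 ± 0.05, adjusted p = 0.542). Its dimer partner maf-S was lower on all 4 arrays, with -0.39, -0.53 and -0.53 unswapped and -0.12 on the dye swap (-0.44 ± 0.16, adjusted p = 0.00204). Hcf, a chromatin-bound coregulator, was lower at -0.23 ± 0.13 (adjusted p = 0.018), with 0.02 on the dye swap. Keap1, which restrains cnc, had -0.23 ± 0.24 and did not pass (adjusted p = 0.0679).

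Among 14 genes for ubiquitin and for the delivery of substrates, 3 were higher (21.4%) and 2 lower (14.3%), both shares below those of all genes, with a median of -0.03. Plap (0.55 ± 0.09, adjusted p = 2.51e-04), a ubiquitin-binding protein, and the polyubiquitin gene Ubi-p63E (0.37 ± 0.10, adjusted p = 0.00165) were higher on all 4 arrays. A cofactor of the unfoldase TER94, p47, was called higher too (0.23 ± 0.14, adjusted p = 0.0219), but was -0.19 on the dye swap. The 2 lower genes, RpL40 (-0.34 ± 0.12, adjusted p = 0.00323) and RpS27A (-0.23 ± 0.14, adjusted p = 0.0212), encode ubiquitin fused to a ribosomal protein. Neither was lower on the dye swap, where RpL40 had 0.003 and RpS27A 0.15.

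The counts of 3 other complexes also stand beside 28.1% higher and 26.6% lower among all genes. Of these, the COP9 signalosome, a relative of the lid that removes Nedd8 from cullins, had 5 of 7 genes higher and none lower (0 of 7). CSN4 (0.44 ± 0.24, adjusted p = 0.00693), alien (0.33 ± 0.15, adjusted p = 0.00547), CSN6 (0.24 ± 0.04, adjusted p = 0.00431) and CSN5 (0.22 ± 0.04, adjusted p = 0.00639) had the largest ratios. On the dye swap CSN4 (-0.06) and alien (-0.08) were negative. Further probes of alien differed in sign, at 0.53 and -0.135. The COP9 median was 0.22, but 0.02 on the dye swap. The chaperonin CCT, which folds actin and tubulin, had no gene higher (0 of 8) and 2 lower, with a median of 0.02. Of 87 cytosolic ribosomal protein genes, 7 were higher and 44 were lower, with a median of -0.17 that was 0.02 on the dye swap.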

How the data were processed

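Per the file headers, the authors used Agilent Feature Extraction 10.1.1.1 to extract spots. Taken from its output were the deposited intensity columns of median spot and background signals, which are not normalized. The deposited log ratio was log10 of Cy5 over Cy3 from processed signals. The authors' matrix held log2 values with scale, centring and direction unstated. Set against the processed signals they had a slope of -1.000 to null over w1118, so they run w1118 over null, with medians of -0.137, 0.071, 0.128 and -0.041. No further centring was seen.

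For the values here, limma 3.58.1 (R 4.3.3) was used to correct the background by normexp with an offset of 50 and to normalize ratios by loess within arrays, with control and outlier spots at weight 0. Channel signals were also scaled between arrays (Aquantile). A probe was kept if 1 genotype had it well above background in 2 or more of the 3 replicates, and the brightest kept probe stands for a gene. Of 32162 probes, 19471 were named through a RefSeq table of Release 6, and 19753 of all probes were kept. The array was designed on an older build, so names, arms and gene order are all that was taken from that table. Fits used lmFit and eBayes on 3 replicates with Benjamini-Hochberg adjustment. Further probes were fitted over all kept probes. The p-values set the mean ratio against the spread between these replicates. In the fit each gene's variance was first moved towards that of all genes.

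Members and gene lists were chosen with earlier results of these data known. Values on every array were given for the 3 highest and 3 lowest genes of each particle and for measured paralogs. The other lists were planned to name up to 4 called genes by size, which was not kept for each list. Values of Pomp, cnc, Keap1 and single members beyond this were chosen after they were seen. Alternatives covered background, normalization, filters, probe summary, dye swap, moderation, slide, array weights and left-out replicates. Scripts were tested on simulated data.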

Additional observations from a re-analysis of the deposited data

Results flagged for a closer look

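In 4 of 42 quantities compared over the 4 arrays, 1 array stood far from the other 3, and in all 4 it was the dye swap of replicate 1. Chance alone gives about 1 such case in 20. Prosbeta3 had 0.658 on the dye swap and -0.222 to -0.139 on the other arrays. Rpn2 had -0.099 there and 0.369 to 0.448 elsewhere. Rpn9 had -0.148 there and 0.345 to 0.404 elsewhere. Rpn8 had 0.065 there and 0.260 to 0.285 elsewhere. The unswapped array of the same replicate 1 extracts lay with replicates 2 and 3. Since 1 array alone had the dyes exchanged, an effect of the dyes and an effect of that array cannot be told apart. The regulatory particle holds 3 of these 4 genes.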

How the results depend on the processing

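Over 18 alternatives, the proteasome genes higher in the null numbered 10 to 21 (19 as reported) and those lower 2 to 4. The alternatives gave 643 values of single genes on the same side of the threshold. Another 46 lost a call, 11 gained one and 1 gained one with the sign turned. The last was Prosbeta3, with no call as reported (-0.043) and 0.236 with a dye term. Its cause was not tested. Prosalpha1, Prosalpha1R, Prosbeta2, Prosbeta6, Rpt1, Rpt3R and Rpt6R passed under every alternative run. Counts of particle genes were added after the data were seen. With arrays centred on their median, the core median was 0.151, the regulatory median -0.015 and the difference 0.165. Under this setting 6 core genes were higher, beside 22.3% of all genes. With the mean of kept probes the difference was 0.158. With replicate 1 from its dye swap alone, 1745 genes were higher and 1678 lower, 11 of them higher proteasome genes and 2 of these regulatory, and the difference was 0.159. With a dye term the regulatory median was 0.024 and the difference 0.182. Without moderation of the variance, 1059 genes were higher and 1017 lower, with 10 proteasome genes higher, 5 core and 1 regulatory. Leaving out 1 replicate gave 1762 to 3001 genes higher and 1709 to 2847 lower, 11 to 21 proteasome genes higher and 2 to 4 lower, 6 to 10 core and 3 to 7 regulatory genes higher, core medians of 0.190 to 0.241, regulatory medians of 0.061 to 0.095 and differences of 0.122 to 0.147. The lowest counts of all genes came without replicate 3. The median of all genes stayed between -0.026 and 0.017 over the alternatives. Each array holds both genotypes, so every ratio is paired within its array. Signals near background limit Rpt3R, Rpt6R, Rpt4R, Prosbeta2R2, Rpn12R and the paralogs not tested.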
